A study of Mus musculus with 96 samples.

Results

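The 87 genes described here encode the proteins of the cytosolic ribosome and their close relatives. They were taken from the 24054 genes of the deposited count table by name. A symbol of Rpl or Rps followed by a number, or Rplp0, Rplp1, Rplp2 or Rpsa, made a gene a member. The 7 rows with "-ps" in the symbol, which hold 178 counts in all cells, and the 10 rows of the Rps6 kinases were left out. Of the members, 46 are proteins of the large subunit and 31 of the small subunit. A further 9 are paralogs, and Rps19bp1, which binds a ribosomal protein, is not a subunit. Some subunit genes have other names and are outside the rule, such as Fau and Gnb2l1 (also called Rack1).

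The cells were single neurons of the preoptic area, a part of the hypothalamus known for its role in regulating body temperature. They came from C57BL/6N mice aged 2-3 months, without a transgene or drug named in the labels. Each was recorded by whole-cell patch clamp in a fresh brain slice and drawn into a glass pipette, followed by amplification of its RNA by Smart-seq2 (Patch-seq). The labels class 24 cells as temperature-insensitive, 21 as warm-sensitive, 5 as cold-sensitive, 18 as silent insensitive and 10 as silent sensitive. The other 18 of the 96 cells are labelled as unknown and were compared with nothing. Since animal, slice and day are in none of the labels, every class was treated as a single sample without a test. Intervals cover counting error only. The question of the study, per its title, was which genes mark temperature-sensitive neurons. A lower level can stand for fewer captured molecules of a cell or for less of that RNA in it, and these cannot be told apart.

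The ribosome has a small subunit, which holds the mRNA, and a large subunit, which joins amino acids. Most of its proteins are needed in a single copy per ribosome, and their mRNAs are among the most abundant and most evenly expressed of a cell. Many of these mRNAs start with a cytosine followed by a run of pyrimidines, through which their translation follows growth signals. Their genes are also known for large numbers of processed pseudogenes, inserted copies of the spliced mRNA.

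Total counts ran from 465167 to 3138144 per classified cell. Rn45s, the precursor of ribosomal RNA, took 25.8% to 91.6% of them, so levels are CPM computed on the counts outside Rn45s. Between 73702 and 2326980 counts remained per classified cell. The labelled neuronal identity was checked against 12 markers: Snap25, a synaptic vesicle fusion protein, reached 10 CPM in 78 of 78 cells, and Syt1, a calcium sensor of synaptic vesicles, in 73. All 12 had counts in every class. Microglia markers had counts in these cells too, with a median summed level of 1918 CPM over 10 marker genes and a range of 6.19 to 53129 CPM. Oligodendrocyte markers (8 genes) had a median sum of 395 CPM and astrocyte markers (8 genes) of 2143 CPM. Of the 6 endothelial markers, Cldn5, Ly6c1 and Slco1a4 were at 0 in all 78 cells and the others had counts. Their summed level ran from 0 to 1195 CPM with a median of 0 CPM, and of 98.1 CPM in cold-sensitive cells.

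Many members share sequence with other annotated genes, and the coding starts of 4 members are shown first to make this visible. Each line gives the first 60 coding bases in GENCODE M21 on mm10, with the closest copy among those searched below it. That search left out genes of 1 chromosome and matches on the opposite strand. Capitals in a copy mark bases that differ from the member. Rps3 (chr7:99477896-99483738, minus strand), a small-subunit protein at the mRNA entry, has no annotated copy of 95% identity or more. Rplp1 (chr9:61913284-61914542, minus strand), an acidic protein of the stalk that recruits elongation factors, has 3. Rpl21 (chr5:146832890-146837032, plus strand) has 57, and Rps27 (chr3:90212522-90213651, minus strand) has 4. The stretches of the 4 members are coding sequence, and those of the copies were taken from annotated transcripts, coding or not.
Rps3: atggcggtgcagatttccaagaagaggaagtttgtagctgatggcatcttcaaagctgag
Rplp1: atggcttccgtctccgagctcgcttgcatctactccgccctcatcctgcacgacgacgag
Gm10073, copy of Rplp1: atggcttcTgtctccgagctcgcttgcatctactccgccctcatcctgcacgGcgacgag
Rpl21: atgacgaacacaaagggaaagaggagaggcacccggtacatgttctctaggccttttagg
Gm28900, copy of Rpl21: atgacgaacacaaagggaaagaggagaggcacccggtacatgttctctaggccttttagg
Rps27: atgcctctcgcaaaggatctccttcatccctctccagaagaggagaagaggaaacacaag
Rps27rt, copy of Rps27: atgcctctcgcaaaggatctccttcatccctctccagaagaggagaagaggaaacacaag
Among the annotated genes searched, the Rpl21 stretch was found letter for letter in 18 others, and that of Rps27 in 1. The stretch of Rps3 was found in none of them, and that of Rplp1 has 2 differences from the closest copy searched.

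The members split into genes seen in nearly every neuron and genes seen in hardly any. Of the 87, 40 reached 10 CPM in at least 75% of the 78 classified cells, 20 in 25% to under 75%, and 27 in under 25%. Rplp1 did so in 78 of 78 cells. Rpl13a and Rps26 followed with 97.4% of cells each, and Rpl4 and Rpl41 with 96.2%. At the other end stood Rpl26, which had 4 counts in 1 cell and 0 of 78 cells at the limit, which allows a share of up to 3.85% (3 of 78). Rpl28 was at the limit in 3 cells, Rpl24 in 4, Rpl23a in 5, and Rpl27, Rpl30 and Rps27 in 6 each. Rpl39l and Rps27rt had no count in any cell. Counts were concentrated as well: the 5 members with most counts, led by Rpl4, Rps3 and Rpl8, held 37.7% of all member counts, and the 10 highest held 57.6%.

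Per length, the highest member was Rplp1, with a mean of 1472 CPM per kb of transcript. Other high members were Rps14 with 1169, Rpl8 with 983, Rpl41 with 877 and Rpl4 with 829 CPM per kb. Rps14 is a protein of the small-subunit platform, Rpl8 and Rpl4 bind near the centre of the large subunit, and Rpl41 is the smallest ribosomal protein. The 6 lowest members among those at 10 CPM in 25% of cells or more were Rpl11 with 12.9, Rps13 with 16.4, Rpsa with 19.8, Rpl17 with 20.6, Rps6 with 23.4 and Rps16 with 27.1 CPM per kb. Rpsa, the laminin receptor protein, has an annotated transcript of 1599 bases and Rps20 one of 3706 bases, and a value per kb depends on this annotated length. Outside the rule, Gnb2l1 stood at 264 and Fau at 60.9 CPM per kb. Eef1a1, the elongation factor that delivers tRNA, stood at 780 CPM per kb, Eef2, which moves the ribosome along, at 143, and the neuronal Eef1a2 at 17.8.

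How much of a coding sequence occurs elsewhere ran with detection. A 50-base window was called shared when the same 50 bases occur in a transcript of another annotated gene. Of the 77 subunit genes, 29 had all windows shared. These reached 10 CPM in a median of 20.5% of cells, and 17 of the 29 did so in under 25%. The 10 genes with under 50% of windows shared had a median of 92.3% of cells and none under 25%, and they held 46.3% of all member counts. The 38 genes in between had a median of 82.7% of cells. Across the 77 genes the Spearman correlation of shared windows with the share of cells was -0.65, and that of transcript length was 0.14. These points share the same 78 libraries and genes are not independent, so the values are descriptions.

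**Figure D1:**
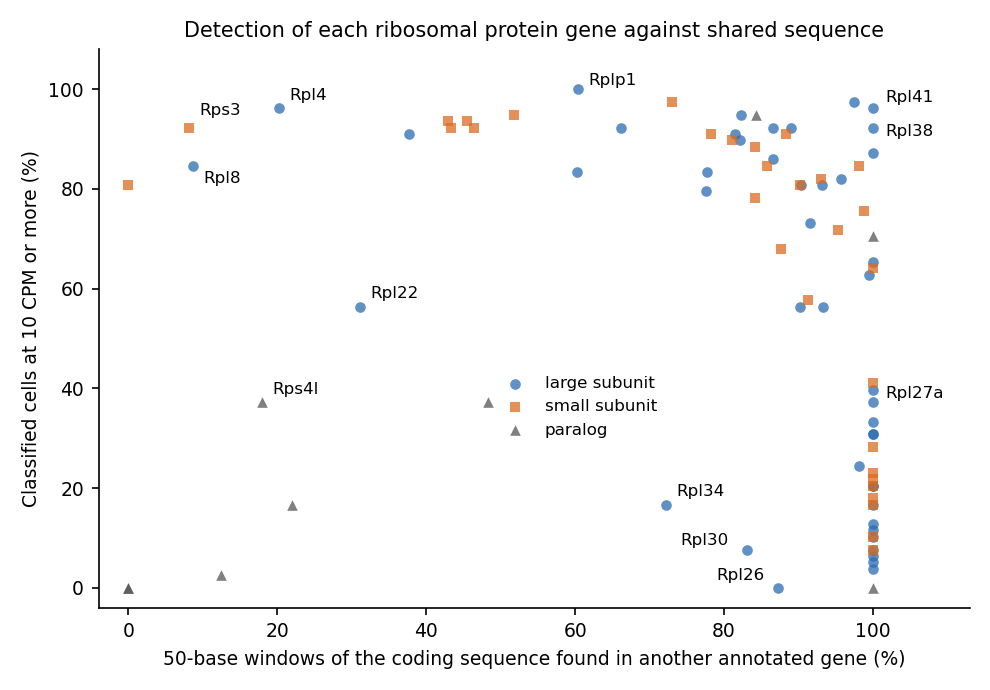
Each point is 1 of the subunit genes or paralogs (Rps19bp1 is not drawn), with the percent of its 50-base coding windows found in another annotated gene on the x axis and the percent of the 78 classified cells at 10 CPM or more on the y axis. Rps3 and Rpl8, at the left, are at 92.3% and 84.6% of cells, and most genes under 25% of cells sit at 100% of windows shared.

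There were exceptions on both sides, and those named here were chosen after their values were seen. Rpl41, Rpl38 and Rpl13 had all windows shared and were at 10 CPM in 96.2%, 92.3% and 87.2% of cells. Rpl34, Rpl30 and Rpl26 had 72.2%, 83.1% and 87.3% of windows shared and were at the limit in 16.7%, 7.69% and 0% of cells. Rpl22, with 31.0% of windows shared, was at the limit in 56.4% of cells. The sources used here do not give how reads that match several genes were counted, and the part of shared sequence in these levels was not tested. A low count of a member with all windows shared is therefore uncertain as a level of its mRNA. Copies with counts of their own also stand in the table. Med21, whose annotated transcripts hold a stretch like Rps26, had 14709 counts, BC004004 (like Rpl21) 13273 and Ciapin1 (like Rpl7a) 7334. For these 3 genes, reads of the member and of the copy may not be separable.

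The stalk and the surface proteins are the members with special roles. Rplp1 ran from 137 to 2021 CPM in insensitive cells with a median of 450, from 44.3 to 1470 in warm-sensitive cells with a median of 653, and from 198 to 1930 in silent insensitive cells with a median of 727. In silent sensitive cells it ran from 15.9 to 2745 with a median of 704. The 5 cold-sensitive cells stood at 339, 472, 1101, 1768 and 2191 CPM. All 5 ranges overlapped, and every cell was above 10 CPM. Its partner Rplp2 had medians of 156, 144, 226, 228 and 272 CPM in insensitive, warm-sensitive, cold-sensitive, silent insensitive and silent sensitive cells. It was at 0 in at least 1 insensitive and 1 warm-sensitive cell and at 38.95 CPM or more in every silent cell. Rplp0, which anchors both to the large subunit, had the widest spread of the 3. It ran from 3.99 to 2402 CPM in insensitive and from 1.13 to 1855 CPM in warm-sensitive cells, with medians of 201 and 427. In cold-sensitive cells it stood at 1.33, 443, 1258, 1288 and 1471 CPM.

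The members linked to growth, stress or ubiquitin were each at 10 CPM in a minority of cells. Rps6, the small-subunit protein phosphorylated downstream of mTOR, had a median of 0 CPM in 4 of the 5 classes and 1.23 CPM in silent insensitive cells. It reached 10 CPM in 22 of 78 cells, 28.2% (exact interval 18.6% to 39.5%). Rpl5 and Rpl11, which bind 5S RNA and can bind the p53 regulator Mdm2, did so in 16 and 24 cells. Rps27a, made as a fusion with ubiquitin, did so in 14 cells. All 4 genes have 100% of their coding windows shared. Rpsa, which is not 1 of these 4, was at 10 CPM in 59 cells, with class medians from 15.9 CPM in warm-sensitive to 28.8 CPM in cold-sensitive cells.

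Several paralogs outranked the genes they resemble. Rpl22l1, a paralog of the RNA-binding Rpl22, was at 10 CPM in 74 of 78 cells (94.9%, interval 87.4% to 98.6%) and Rpl22 in 44 (56.4%, interval 44.7% to 67.6%). Rpl22l1 had medians between 144 and 207 CPM in the 5 classes, against 4 to 77.1 CPM for Rpl22. In insensitive cells Rpl22l1 ran from 55.2 to 411 CPM and Rpl22 from 0 to 299 CPM, so Rpl22l1 was the steadier of this pair there. Both have sequence of their own: 31.0% of the windows of Rpl22 and 84.2% of those of Rpl22l1 are shared. Rps27l, known as a p53 target, was at 10 CPM in 29 cells and Rps27 in 6, but all windows of Rps27 are shared against 48.3% of those of Rps27l. Rpl36al was at the limit in 55 cells and Rpl36a in 16, with all windows of both shared. Rps4l, annotated as a transcribed processed pseudogene, was at the limit in 29 cells and reached 2654 CPM, while Rps4x, the X-linked subunit gene, was at the limit in 63 cells.

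The tissue-restricted paralogs were near or at 0. Rpl3l, the form of heart and skeletal muscle, reached 10 CPM in 0 of 78 cells, which allows a share of up to 3.85% by the same 3 counts (exact interval up to 4.62%), while Rpl3 did so in 64. Rpl10l, the testis form of Rpl10, was at the limit in 2 cells and Rpl10 in 13. Rpl39l, also a testis form, had no count and Rpl39 was at the limit in 67 cells. Rpl7l1, a relative of Rpl7, was at the limit in 13 cells, with up to 993 CPM in an insensitive cell.

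**Figure D2:**
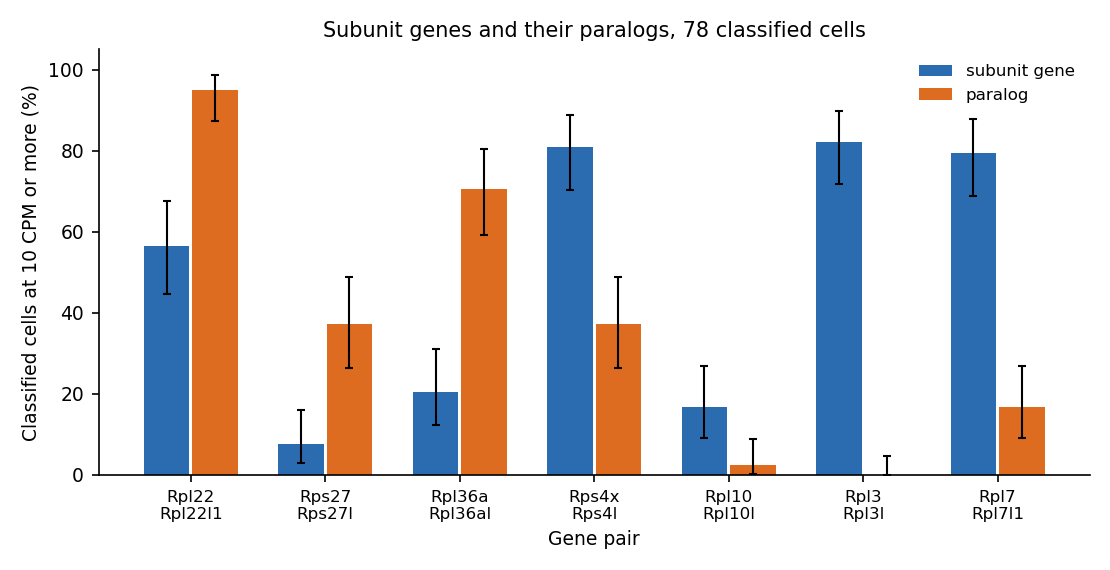
Bars give the percent of the 78 classified cells at 10 CPM or more for 7 subunit genes and their paralogs, and error bars the exact 95% binomial interval, which covers counting error only. Rpl22l1 is at 94.9% against 56.4% for Rpl22, while Rpl3l is at 0% against 82.1% for Rpl3.

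The starts of the members carried the pyrimidine run more often than those of other genes. The RefSeq promoter sequences (GRCm38.p6) held 66 of the 87 members. A run was counted where a C at most 5 bases from the annotated start was followed by at least 4 bases that were C or T, on the gene's strand. This held for 30 of the 66 members (45.5%) and for 5718 of 27025 genes with a start in the same table (21.2%). At the annotated start base itself it held for 14 members (21.2%) and for 3.01% of all genes. For 68 genes of mitochondrial ribosomal proteins it held for 25% in the window and for 0% at the start base. Starts of 5 members with a run and 3 without are shown, each with 15 bases before and 15 from the start on. Capitals mark the run. They lie at chr4:86857353-86857382 (Rps6), chr2:39005117-39005146 (Rpl35), chr14:18270972-18271001 (Rpl15), chr17:27635230-27635259 (Rps10), chr3:90213634-90213663 (Rps27), chr7:99483695-99483724 (Rps3), chr9:64173372-64173401 (Rpl4) and chr5:115559452-115559481 (Rplp0). Rpl4 and Rplp0 lie on the plus strand and the others on the minus strand.
Rps6: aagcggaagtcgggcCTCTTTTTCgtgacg
Rpl35: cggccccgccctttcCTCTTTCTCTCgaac
Rpl15: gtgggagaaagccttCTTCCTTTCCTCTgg
Rps10: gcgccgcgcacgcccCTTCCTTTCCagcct
Rps27: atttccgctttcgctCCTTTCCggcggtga
Rps3: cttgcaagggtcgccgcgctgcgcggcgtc
Rpl4: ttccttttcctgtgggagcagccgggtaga
Rplp0: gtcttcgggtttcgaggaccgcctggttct
The 3 members without a run near the annotated start were at 10 CPM in 92.3%, 96.2% and 83.3% of cells. Rps27, Rps6, Rpl15, Rpl35 and Rps10, with runs, were at 7.69%, 28.2%, 37.2%, 73.1% and 82.1%. Among members seen in at least 75% of cells, 15 of 30 had the run, among those seen in 25% to under 75%, 9 of 16, and among those seen in under 25%, 6 of 20. An annotated start can lie some bases away from the one used, so a missing run says only that these letters are not in this window.

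The share of counts outside Rn45s that fell on ribosomal protein genes overlapped widely between the 5 classes. In insensitive cells, 0.252% to 2.73% of the counts outside Rn45s fell on members, with a median of 1.05%. Warm-sensitive cells ran from 0.409% to 2.31% with a median of 1.39%, and silent insensitive cells from 0.257% to 3.53% with a median of 1.30%. Silent sensitive cells ran from 0.319% to 2.84% with a median of 1.15%. The 5 cold-sensitive cells ran from 0.744% to 2.47% with a median of 1.35%. The standard deviation over the insensitive cells was 0.569. The order of the medians, with warm-sensitive cells highest and insensitive cells lowest, depended on the scaling. With Rn45s in the totals, insensitive cells were highest with 0.564% and warm-sensitive cells lowest with 0.384%, and cold-sensitive, silent insensitive and silent sensitive cells had 0.497%, 0.555% and 0.387%. Scaling by DESeq2 size factors, 1 per cell, gives a level of the members and not a share of the cell's own counts. On that scale the medians were 0.432% in insensitive, 0.597% in silent insensitive and 0.952% in warm-sensitive cells. They were 1.05% in cold-sensitive and 1.32% in silent sensitive cells, further apart than on totals without Rn45s. Summed over cells, the share was 1.17% for insensitive and 1.23% for warm-sensitive cells, and 1.47% for the cold-sensitive ones. It was 1.29% and 1.18% for silent insensitive and silent sensitive cells. The 18 cells without a class ran from 0.355% to 1.51%.

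**Figure D3:**
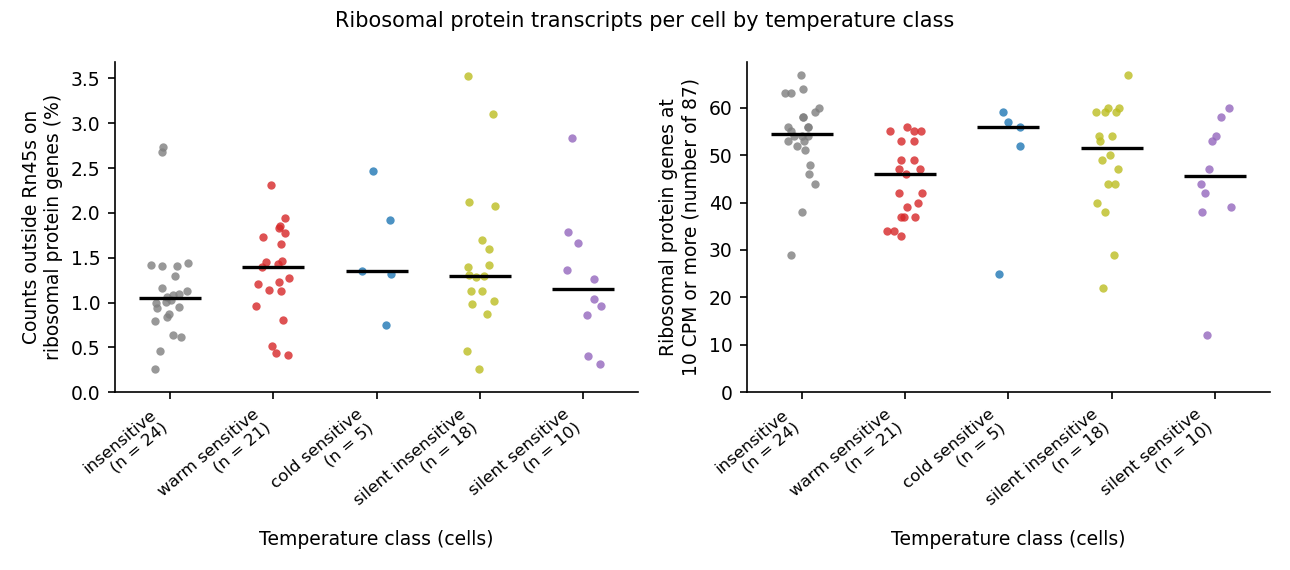
Each point is 1 cell and each line the class median. The left panel gives the percent of counts outside Rn45s on the 87 genes, with medians of 1.05% to 1.39% and overlapping ranges, and the right panel the number of these genes at 10 CPM or more, with medians of 45.5 to 56.

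The number of members seen per cell differed more. A median of 54.5 members was at 10 CPM in insensitive and 46 in warm-sensitive cells, and 56 in the cold-sensitive ones. Silent insensitive cells had 51.5 and silent sensitive cells 45.5. The ranges overlapped here too, with 29 to 67 in insensitive and 33 to 56 in warm-sensitive cells. Cells in which more genes were detected had more members with a count, with a Spearman correlation of 0.82 and a Pearson correlation of 0.78 over 78 cells. Detected genes had a median of 4022 in insensitive and 3244 in warm-sensitive cells. Each cell was also thinned to 200000 counts outside Rn45s, which left out 1 warm-sensitive and 4 silent insensitive cells. The medians were then 56.5, 47, 57, 57 and 45.5 members in the same order. Of all genes, medians of 2829.5, 1867.5, 3387, 2818.5 and 1819 were then at 10 CPM in that order. Over 78 cells the share of counts on members had a Spearman correlation of 0.41 with the share of Rn45s. With summed markers it was 0.48 for microglia, 0.38 for oligodendrocytes, 0.13 for astrocytes, -0.02 for endothelial cells and -0.27 for neurons. These cells share a protocol and differ in depth, and the part of RNA of other cell types or of Rn45s in the share was not tested.

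**Figure D4:**
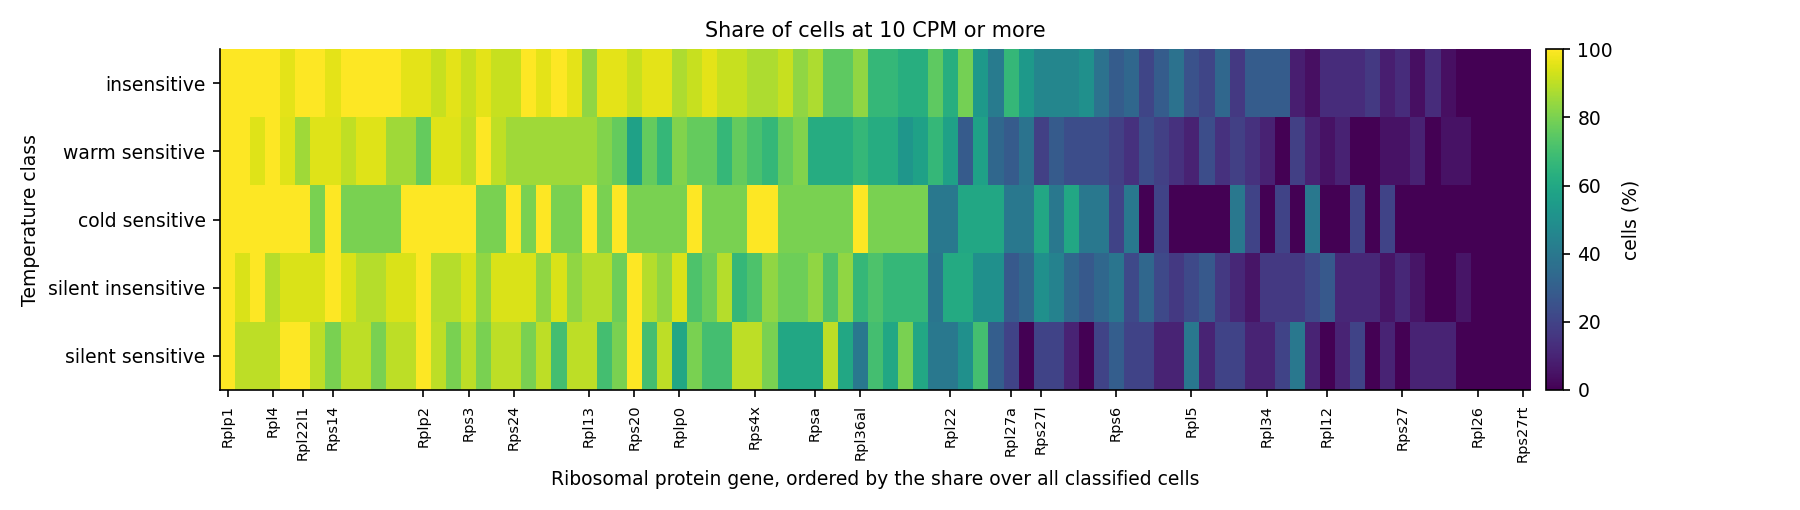
Rows are the 5 temperature classes and columns the 87 genes, ordered by the share over all classified cells, with some of the genes named for orientation. The colour gives the percent of the class's cells at 10 CPM or more, from 0% to 100%. All rows share this 1 order of columns, and how alike the classes are in their own orders was not measured. Rplp1 is at 100% in each class and Rps27rt at 0%. Rpl36al runs from 40% in silent sensitive to 100% in cold-sensitive cells.

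Differences between classes are given as differences in mean log2(CPM + 1), averaged over cells, for genes that reached 10 CPM in 25% or more of either class, with a minimum of 3 cells. A difference of 1 on this scale, 2-fold, was the limit for a count. Members below the limit in both classes were not compared. For those that passed through 1 class alone, the limit itself favours a lower value in the other class, though it does not force one. Rpl36 passed through the insensitive cells alone, with means of 3.07 in cold-sensitive and 2.38 in insensitive cells. The insensitive cells serve in 3 of the 5 comparisons and the others also share cells, so the comparisons are not independent of each other.

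In warm-sensitive cells the members were lower than in insensitive cells by less than the typical gene. The median difference over 68 members was -0.56, against -1.28 over all 5088 genes compared, and 59 of the 68 lay above that median gene. With DESeq2 size factors the median of the members was 0.51 and that of all genes -0.67, so the direction depends on the scaling. With no limit on low genes, the members (-0.49 over 85) lay below the median of all genes (-0.34), so their place above the typical gene holds among genes past the limit. At least 2-fold lower were 19 members (27.9%), against 61.6% of all genes, and 1 member was at least 2-fold higher, against 1.71% of all genes. With DESeq2 size factors this split turned, to 20 members higher and 2 lower, against 6.40% and 36.3% of all genes. Members are abundant genes, and among the genes at 10 CPM in at least 75% of classified cells the medians were -0.25 for 40 members and -1.0 for all. The large subunit had a median of -0.35 over 37 genes and the small subunit -0.58 over 25. Proteins of the mitochondrial ribosome had a median of -1.70 over 63 genes, initiation factors of -1.55 over 27, and 9 ribosome biogenesis factors of -2.14. Of 12 neuronal markers, 8 were at least 2-fold lower in warm-sensitive cells, with a median of -1.24 and summed levels of 2425 to 20081 CPM against 3260 to 21764 CPM. Of 4 oligodendrocyte markers compared, 3 were at least 2-fold higher and 1 at least 2-fold lower. The summed levels of these markers had nearly equal medians, 245 CPM in warm-sensitive and 242 CPM in insensitive cells. They ran from 3.78 to 53920 CPM against 2.06 to 3076 CPM. Their part in the differences of the members was not tested.

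Rpl27a, a large-subunit protein, was the lowest member in warm-sensitive against insensitive cells, with a difference of -2.60. It had a median of 1.95 CPM in warm-sensitive and 63.4 CPM in insensitive cells and was at 10 CPM in 28.6% and 66.7% of them. All windows of Rpl27a are shared with other genes. Rpl29 differed by -2.48, with 0 to 93.7 CPM in warm-sensitive and 3.74 to 88.1 CPM in insensitive cells. Rpl14 differed by -2.0 and Rps20 by -1.95, with medians of 51.5 against 151 CPM and of 71.7 against 107 CPM. With the title letter as a term Rps20 differed by -1.16. Summed counts of Rpl14 were not lower, with 172 CPM in warm-sensitive and 157 CPM in insensitive cells. Rpl7l1 was at the limit in no warm-sensitive cell, which allows a share of up to 14.3%, and in 29.2% of insensitive cells. It passed through the insensitive cells alone, so the limit favoured a lower value in warm-sensitive cells. The ranges of these 5 genes overlapped between the classes.

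Cold-sensitive cells differed little from insensitive cells in the members as a group. The median over 68 members was -0.13, against -0.45 over 5116 genes, and 47 of the 68 lay above the median gene. At least 2-fold higher were 7 members (10.3%), against 17.8% of all genes, and 11 were at least 2-fold lower (16.2%), against 35.8%. Without cold-sensitive cell 4 these counts were 17 higher and 6 lower, and without cell 1 they were 4 and 18. With TMM library sizes 17 were higher and 11 lower, against 21.5% and 32.8% of all genes. Only 5 cells carry this class, and leaving out 1 of them moved the median between -0.57 (without cell 1) and 0.56 (without cell 4). With TMM library sizes, DESeq2 size factors or the deposited normalized values the median was 0.21, 0.19 and 0.19, so its sign depends on the scaling. Microglia markers moved with this class: all 9 that could be compared were at least 2-fold higher, with a median of 2.06. Their summed level ran from 30.6 to 23222 CPM in cold-sensitive and from 6.19 to 31076 CPM in insensitive cells, and Tmem119 was at 0 in all 5 cold-sensitive cells. Their part in the differences of the members was not tested.

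Rps24, a small-subunit protein mutated in Diamond-Blackfan anaemia, was 1.73 higher in cold-sensitive cells. The 5 cells stood at 133, 325, 444, 521 and 682 CPM, against 0.997 to 735 CPM and a median of 165 in insensitive cells. Rpl13, Rpl3 and Rpl35a were 1.07, 1.01 and 0.77 higher, and 0.81, 0.83 and 0.49 with the letter in the cell's title, whose meaning the labels do not give, as a term. Rpl3, which lines the peptidyl transferase centre, stood between 76.1 and 176 CPM in all 5 cells. Of the members that were lower, Rps19bp1 differed by -1.75, Rpl34 by -1.70, Rpl15 by -1.68, Rpl36a by -1.59 and Rpl5 by -1.40. All of these passed the limit through the insensitive cells alone, so the limit favoured lower values in cold-sensitive cells. Rpl15 was at 10 CPM in 40% of cold-sensitive cells and failed there only by the minimum of 3 cells. Rps19bp1, Rpl34, Rpl36a and Rpl5 reached 10 CPM in no cold-sensitive cell. With the letter term Rpl15 differed by -0.98. Rpl34 was at 0 in all 5 cold-sensitive cells, which allows a share of up to 60%, and at 10 CPM in 29.2% of insensitive cells. The class ranges of these genes overlapped.

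On average over cells, warm-sensitive cells had lower members than cold-sensitive cells, by less than the typical gene. The median was -0.51 over 57 members and -1.35 over 2614 genes, and 48 of the 57 lay above the median gene. It was 0.41 with DESeq2 size factors and -0.01 with the title letter as a term, so neither its sign nor its size holds across these settings. With summed counts the members (-0.16) lay below the median of all genes (0.01), so their place above the typical gene turned too. At least 2-fold lower were 14 members (24.6%), against 57.6% of all genes. At least 2-fold higher were 0 members, against 10.8% of all genes. By DESeq2 size factors, 15 members were higher and 2 lower, and with the letter term 7 were higher and 12 lower. All genes then stood at 19.8% higher and 39.4% lower, and at 10.6% and 57.8%. Leaving out cold-sensitive cell 4 raised the members past 2-fold from 14 to 30. Rps27l differed by -2.77, with 19% of warm-sensitive and 60% of cold-sensitive cells at the limit. It passed through the cold-sensitive cells alone, so the limit favoured a lower value in warm-sensitive cells. Rplp2, Rps4x and Rps24 differed by -1.80, -1.79 and -1.51, and all 5 cold-sensitive cells had each of them. Summed counts of Rps4x were not lower, with 85.5 CPM in warm-sensitive and 79.6 CPM in cold-sensitive cells. No member was named as higher, since none met the rule for named genes. Of the 9 microglia markers compared, 8 were at least 2-fold lower in warm-sensitive cells, and the part of these in the differences was not tested. Gnb2l1, the scaffold protein of the small subunit, differed by -3.24.

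**Figure D5:**
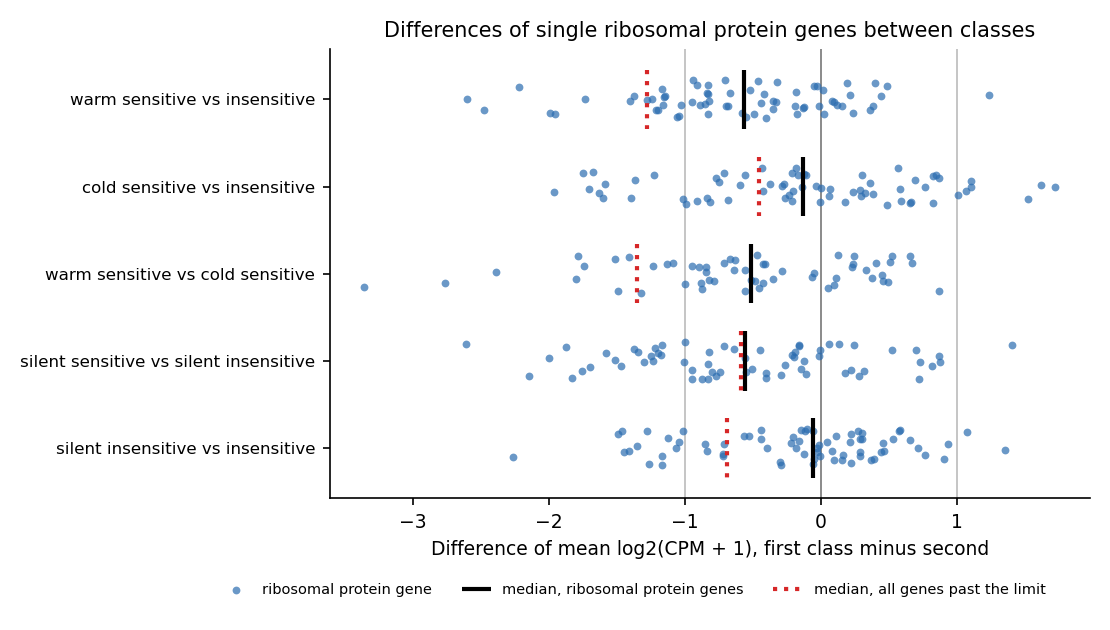
Each point is 1 ribosomal protein gene past the limit on low values, and the x axis gives the difference of mean log2(CPM + 1) between the 2 classes named at the left. Black bars mark the median of these genes and dotted red bars the median of all genes compared. In warm-sensitive against insensitive cells the 2 medians are -0.56 and -1.28, while for the silent cells they are -0.56 and -0.59.

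Among silent neurons the median of the members lay close to that of all genes. Silent sensitive cells had a median difference of -0.56 from silent insensitive cells over 65 members, against -0.59 over 3980 genes, and 33 of the 65 lay above the median gene. With DESeq2 size factors it was 0.27, against 0.11 for all genes. With the title letter as a term the 2 medians were further apart, at -0.05 and -0.46, and so they were after thinning, at -0.68 and -1.03. At least 2-fold lower were 20 members (30.8%), against 38.8% of all genes. At least 2-fold higher was 1 member (1.54%), against 13.6%. The split was 12 higher and 5 lower with DESeq2 size factors, and 7 and 7 with the letter term. All genes then stood at 27.4% higher and 22.4% lower, and at 17.9% and 35.8%. Silent sensitive cell 8, which had 12 members at 10 CPM, decided much of this: without it the median was -0.08. Of 12 neuronal markers, 6 were at least 2-fold lower in silent sensitive cells, with summed levels of 1302 to 12674 CPM against 1659 to 17416 CPM, and their part was not tested. Without the cells over 75% Rn45s, which leaves 8 and 14 cells, the median was -1.24.

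Rpl6, a large-subunit protein, was the 1 named gene higher in silent sensitive cells, by 1.41. It ran from 0 to 188 CPM with a median of 70.8, against 0 to 257 CPM and a median of 42.9 in silent insensitive cells. Its difference was 2.51 with the title letter as a term. Rpl7 differed by -2.61, and by -1.69 with that term, with medians of 13.7 and 240 CPM. Rps27l differed by -2.14, and by -0.50 with the title letter as a term. Rpl15, with all windows shared, differed by -2.0. It was at 10 CPM in 0 of 10 silent sensitive cells, which allows a share of up to 30%, and in 33.3% of silent insensitive cells. Rps27l and Rpl15 passed the limit through the silent insensitive cells alone, so the limit favoured lower values in silent sensitive cells. Rps19, the subunit most often mutated in Diamond-Blackfan anaemia, differed by -1.87, with 70.0% and 94.4% of cells at the limit. Rplp0 differed by -1.83, and by -0.83 with the title letter as a term, while its summed counts were 392 and 414 CPM. The ranges of all 6 genes overlapped.

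Silent and other insensitive cells had members at nearly the same level, while the typical gene was lower in silent cells. The median difference of silent insensitive from insensitive cells was -0.05 over 71 members and -0.69 over 5368 genes, and 52 of the 71 lay above the median gene. The sign of so small a median turned with the setting: it was 0.43 with DESeq2 size factors and 0.05 with the deposited normalized values. At least 2-fold higher were 2 members (2.82%), against 5.85% of all genes, and 14 were at least 2-fold lower (19.7%), against 36.7%. This split was 7 higher and 4 lower with DESeq2 size factors, against 7.68% and 27.0% of all genes. Among the genes at 10 CPM in at least 75% of classified cells, 35 of 40 members lay above the median of all, with medians of 0.13 and -0.55.

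Rps20 was 1.36 higher in silent insensitive cells. It was at 10 CPM in all 18, from 38.8 to 1386 CPM with a median of 215, against 0 to 359 CPM and a median of 107 in insensitive cells. Rplp2 was 1.08 higher, Rpl37a 0.94 and Rplp0 0.77. For Rplp0 the difference was 0.35 with the title letter as a term, and its summed counts went the other way, with 414 CPM in silent insensitive and 462 CPM in insensitive cells. All 4 stalk genes compared, Rplp0, Rplp1, Rplp2 and Rpl12, lay above the median gene, with differences of at least 0.30. Of these, Rpl12 was at the limit in 27.8% of silent insensitive and 12.5% of insensitive cells. It passed through the silent cells alone, so the limit favoured a higher value there. Rpl27a differed by -2.26, with 27.8% of silent insensitive and 66.7% of insensitive cells at the limit. Rpl10 and Rpl6 differed by -1.46 and -1.45. Rpl10 passed the limit through the insensitive cells alone, so the limit favoured a lower value in silent insensitive cells. Rpl4, the member with most counts, differed by -1.41, with medians of 759 and 1110 CPM and 88.9% and 100% of cells at the limit. Oligodendrocyte markers were higher in the silent cells, with a median of 2.27 over 3 genes and summed levels of 4.16 to 10699 CPM against 2.06 to 3076 CPM, and 3 of 9 microglia markers were at least 2-fold higher. Their part in these differences was not tested.

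Genes outside the rule gave mixed values. Fau, a fusion of a ubiquitin-like protein with a small-subunit protein, differed between -0.92 and 0.00 in the 5 comparisons. Eef1a1 differed by 0.13 in warm-sensitive and by 0.63 in cold-sensitive from insensitive cells, and by -0.78 in silent sensitive from silent insensitive cells. Eef2 differed by -0.27, -0.91 and -1.66 in these 3 comparisons, and Eef1a2 by -0.30, -1.58 and -0.47.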

How the data were processed

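RNA of 96 single neurons was sequenced after patch-clamp recording and Smart-seq2, per the labels' protocols. The authors deposited raw counts as whole numbers. A second deposited table holds signal values, which equal the counts times 1 constant for each cell. The submitters' processing notes name FastQC, STAR, edgeR and mm10. The sources used here do not give the annotation, strand use or treatment of reads with several matches. Near-identical and overlapping genes therefore cannot be told apart.

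Members were found by symbol, and members and gene lists were chosen with earlier results of these data known. Counts were divided by totals without Rn45s (CPM), and levels compared as mean log2(CPM + 1), which understates changes of low genes. Shares of cells have exact Clopper-Pearson and sums exact Poisson 95% intervals. Beside a count of 0, the share allowed is 3 counts of the total. Reads are not independent molecules, so intervals cover counting error only. Depth was 73702 to 2326980 counts outside Rn45s per classified cell. Named genes are the 6 highest and 6 lowest per kb, per comparison up to 5 in each direction whose share of cells differs the same way and whose difference keeps 2/3 of its size without any 1 cell, and a set that was always named. Some genes that this rule names are not reported here. The transcript per gene was the APPRIS principal one of GENCODE M21. Copies were sought with blastn 2.17.0 among annotated transcripts at 95% identity over 80% of the coding sequence, since no genome was used here. The measures were tested on simulated data. Alternatives were totals with Rn45s, TMM sizes (edgeR), DESeq2 size factors, deposited values, pseudocounts 0.1 and 10, no limit on low genes, thinning, leaving out cells over 75% Rn45s or any 1 cell, summed counts, the title letter as a term, centring on the median gene, canonical subunits, other identity limits and the exact start base. Added after seeing the data were members with under 50% of windows shared and genes at 10 CPM in 75% of cells. Software was Python 3.11.15 with pandas 2.3.3 and scipy 1.17.1, and R 4.3.3 with edgeR 4.0.16 and DESeq2 1.42.0.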

Additional observations from a re-analysis of the deposited data

Results flagged for a closer look

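A cell stood apart from the others of its class in 17 of 70 groups of values looked at, in the classes with 5 and 10 cells. Chance flags about 1 in 20 groups of normally distributed values, a rate that levels with many zeros need not follow, and many of these genes come from the same cell, so they are not separate signs. Levels are log2(CPM + 1).

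Cold-sensitive cell 4 had 25 members at 10 CPM, against 52 to 59 in the other 4 cells. Its levels of Rpl37a, Rps19 and Rps20 were 0, with the next cells at 5.26, 5.51 and 6.09. Cold-sensitive cell 3 had Rplp0 at 1.22, with the next at 8.79, and Rpl36a at 2.66 where the others were at 0. Cold-sensitive cell 1 had Rpl7l1 at 7.52 with the others at 0, and Rps6 at 3.57 with the next at 0.74.

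Silent sensitive cell 8 had 12 members at 10 CPM, against 38 to 60 in the others. Its levels of Rpl6 and Rps24 were 0, with the next cells at 5.15 and 6.62. It also had Rpl35a at 1.37, with the next at 4.50, and Rplp1 at 4.08, with the next at 7.75. Silent sensitive cell 9 had Rpl34 at 5.07 with the others at 0, and Rpl36a at 5.28 with the next at 2.14. Silent sensitive cell 1 had Rps4x at 0, with the next at 4.63.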

How the results depend on the processing

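No paired analysis was possible because no label ties cells of different classes together. The cause of the changes below was not tested. The median of the members in warm-sensitive against insensitive cells was 0.51 with DESeq2 size factors and 0.71 relative to the median gene. In warm-sensitive against cold-sensitive cells it was 0.84 relative to the median gene. Without any 1 cell the medians ran from -0.69 to -0.45 (warm-sensitive against insensitive), -0.57 to 0.56 (cold-sensitive against insensitive), -1.12 to -0.17 (warm- against cold-sensitive), -0.92 to -0.08 (silent sensitive against silent insensitive) and -0.17 to 0.06 (silent insensitive against insensitive).

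Members past 2-fold in either direction numbered 20 in warm-sensitive against insensitive cells, 8 with deposited values, 34 and 6 with pseudocounts 0.1 and 10, 8 with summed counts, 4 among members with under 50% of windows shared and 10 among genes at 10 CPM in 75% of cells. Of all genes, 54.8%, 77.2%, 30.6%, 46.8%, 63.3% and 52.0% were past it under these settings in turn. In cold-sensitive against insensitive cells they numbered 18, 28 with TMM, 8 with pseudocount 10, 2 among members with under 50% of windows shared and 8 among genes in 75% of cells, against 54.3%, 31.0%, 53.6% and 36.6% of all genes. In warm- against cold-sensitive cells they numbered 14, 24 with TMM, 23 and 8 with pseudocounts 0.1 and 10, 9 with summed counts, 24 relative to the median gene, 2 with under 50% of windows shared, against 72.9%, 74.4%, 49.8%, 50.8%, 62.7% and 68.4% of all genes, and 13 to 30 without any 1 cell. Among silent cells they numbered 21, 10 with deposited values, 35 and 8 with pseudocounts 0.1 and 10, 37 without cells over 75% Rn45s, 10 with summed counts, 3 with under 50% of windows shared and 12 among genes in 75% of cells, against 46.4%, 63.2%, 28.0%, 62.5%, 54.2%, 52.4% and 36.9% of all genes. In silent insensitive against insensitive cells they numbered 16, 8 with deposited values, 3 with pseudocount 10, 7 with summed counts, 1 with under 50% of windows shared and 5 among genes in 75% of cells, against 36.6%, 15.8%, 37.1%, 42.5% and 35.0% of all genes. These totals hide turns of the split between higher and lower members, which stand beside each comparison.

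For the share of counts on members, results with DESeq2 size factors, TMM or deposited values are scaled levels, not shares of a cell's own counts. The median was 0.432% with DESeq2 size factors and 0.364% with deposited values in insensitive cells. In warm-sensitive cells it was 0.384% with Rn45s in the totals, 0.519% with deposited values and 0.626% for members with under 50% of windows shared. In cold-sensitive cells it was 0.497% with Rn45s, 2.28% with TMM and 0.679% for those members. In silent sensitive cells it was 0.387% with Rn45s. Starts with a run were 21.2% at the start base alone. Of the other main values, 186 under an alternative moved by less than the spread over cells or, for counts, stayed within 1.5 times. Since that spread is wide, this allows a change of sign or of order between classes. Depth limits genes below 10 CPM most.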
